A study of Caenorhabditis elegans with 24 samples.

Results

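The pals genes of Caenorhabditis elegans were taken as every gene of the expression table whose name is pals followed by a number, which gave 38 of the 20191 genes. They encode proteins with a divergent motif known as the ALS2CR12 signature, and the family is larger in these nematodes than in mammals. Some members control the intracellular pathogen response, a transcriptional program that worms switch on when microsporidia or the Orsay virus infect the intestine and when protein turnover is disturbed, and many other members are among the genes that the program switches on. Within it pals-22 is a repressor and pals-25 its antagonist, pals-17 is a repressor, pals-16 and pals-20 act against pals-17, and the promoter of pals-5 is the usual reporter.

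The study asked which transcripts change with quercetin, a plant flavonoid, and with loss of abl-1, the worm Abl tyrosine kinase. RNA came from pellets of whole worms collected on day 3, and 24 libraries were sequenced in 5 groups. The wt groups were strain NV48, untreated (n = 5), on 100 µM quercetin (n = 5) and on 100 µM lutein, a carotenoid (n = 4). The abl-1 KO groups were strain NV50, which carries abl-1(ok171), untreated (n = 5) and on 100 µM quercetin (n = 5). Both strains were isolated after crossing XR1, the source of the abl-1 allele, with GRU102, a strain that expresses human amyloid-beta in neurons, and the strain list gives NV48 and NV50 without that transgene. Each genotype was 1 strain and each library a pool of worms, so a difference between genotypes cannot be told apart from a difference between these isolates. All animals ate Escherichia coli HT115 with the empty vector L4440 from the egg on, and untreated animals received the solvent, 0.5% DMSO with 0.005% Tween 80. The labels were followed here, but the methods of the study name the RNA-seq strains differently, calling NV48 the amyloid-beta strain and naming NV51 as the abl-1 KO. In the strain list NV51 carries the amyloid-beta transgene as well as abl-1(ok171), so that if NV51 was used, the loss of abl-1 and the transgene cannot be told apart in the comparisons of abl-1 KO with wt.

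The libraries held 27.7 to 45.6 M mapped reads. The targeted gene matched the labels, with abl-1 at 6.85 to 7.77 RPKM in the 14 wt libraries and at 1.71 to 2.14 RPKM in the 10 abl-1 KO libraries (RPKM: reads per kilobase of exon and M mapped reads). Of 33 marker genes of intestine, epidermis, neuron, muscle, germline and yolk, 32 passed the filter on low values given below. The 31 major sperm protein genes, of which 28 passed that filter and 1 was at 0 in every library, summed to 4.54 to 113 RPKM in untreated wt, 8.01 to 337 on quercetin, 19.4 to 129 on lutein, 11.8 to 620 in untreated abl-1 KO and 18.1 to 442 in abl-1 KO on quercetin. A lower level in such whole worms can come from fewer cells of a type or from less RNA per cell, and these cannot be told apart.

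Most pals genes were at or near 0 in every group. The mean over all 24 libraries was below 0.1 RPKM for 25 of the 38 members (65.8%), against 25.7% of all genes. The median of the members' means was 0.0516 RPKM, and over all genes it was 1.40 RPKM. Only 7 members had a mean of at least 1 RPKM, in the order pals-24, pals-23, pals-17, pals-25, pals-22, pals-34 and pals-16. In all, 15752 reads fell on the family, 509 to 792 in a library, and 22 to 28 members had a read in any 1 library. No read was listed for pals-10 and pals-15 in any library, and a limit of 3 reads over the 819.2 M mapped reads allows up to 0.0132 RPKM for pals-10 and 0.00331 RPKM for pals-15. These limits cover counting error only.

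**Figure D1:**
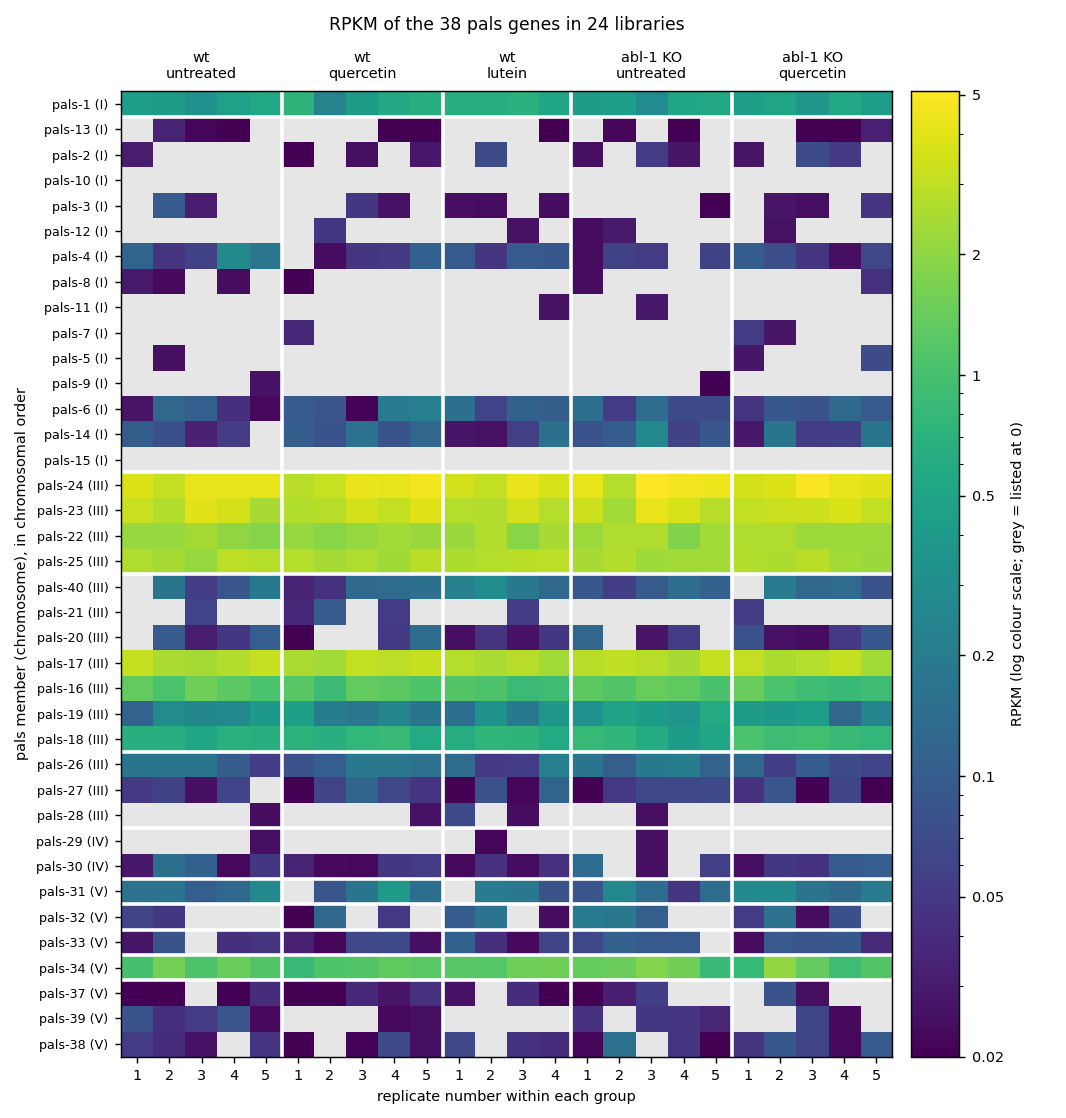
RPKM of the 38 pals genes (rows, in chromosomal order with the chromosome in brackets, groups of neighbours set apart by white lines) in the 24 libraries (columns, by group and replicate number), on a log colour scale with grey for values listed at 0. The chromosome III rows from pals-24 to pals-25, with pals-17, pals-16, pals-18, pals-34 and pals-1, are coloured in every library, and the chromosome I rows from pals-13 to pals-15 are mostly grey.

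Levels are given below by place in the genome (assembly WBcel235), and they differed widely within some groups of neighbours as well as between groups. Members less than 200 kb apart on 1 chromosome were grouped as neighbours, which gave 11 groups on 4 chromosomes. The largest group was 14 members within 61.3 kb on chromosome I, from pals-13 to pals-15 (I:13083321-13144623), and all 14 together reached a summed mean of only 0.331 RPKM, or 1.67% of the family. The 4 neighbours pals-24, pals-23, pals-22 and pals-25, within 17.5 kb at III:120435-137975, summed to 11.97 RPKM and made up 60.5% of it. They lie on 1 strand, with 87 bases between pals-24 and pals-23 and 92 bases between pals-22 and pals-25. A second chromosome III group at III:1376945-1406263 held pals-40, pals-21, pals-20, pals-17, pals-16, pals-19 and pals-18, from 0.0150 RPKM for pals-21 to 2.78 RPKM for pals-17, and made up 25.9%. Outside these, pals-34 at V:7955404-7956497 had a mean of 1.28 RPKM and pals-1 at I:11579856-11581989 one of 0.493 RPKM, and the remaining 11 members, on chromosomes III, IV and V, ranged from 0.00296 RPKM for pals-29 to 0.160 RPKM for pals-31.

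Some members overlap other annotated genes, so that some of their reads could belong to more than 1 gene. The shared bases below are of whole genes with their introns, and how many lie in exons was not examined. The kit marks strand, but neither the strand setting nor the handling of reads that map to several places is stated in the labels or methods. On opposite strands, pals-24 shares 529 bases with C29F9.12, which had a mean of 25.5 RPKM, and pals-20 lies inside Y82E9BR.5, with a mean of 2.47 RPKM. On the same strand pals-18 and pals-19 share 53 bases, pals-3 and pals-12 share 2287, and pals-13 and C17H1.2 share 400. Other overlaps, of pals-3 with pals-4 and of further members with str-46, a pseudogene, an antisense RNA and piRNAs, are not described. Where members resemble each other in sequence, their reads could also be split or dropped, so that low levels within the groups of neighbours are uncertain.

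A gene was tested where at least 4 libraries had at least 0.5 RPKM. This left 9 pals genes, or 23.7% of the members, against 63.3% of all genes. Of these, pals-1 reached 0.5 RPKM in 12 libraries, pals-18 in 23 and the other 7 in all 24. The 9 tested members held 92.8% of the family's summed level. Differences were tested with limma on log2(RPKM + 0.5), so that the log2 differences below understate changes of low genes, and adjusted p values are Benjamini-Hochberg values over all 12771 tested genes.

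None of the 9 tested pals genes passed an adjusted p of 0.05 with limma in any of the 7 comparisons, and limma-voom on reads recovered from the values also called 0. Among all tested genes, limma called 0% for quercetin against untreated wt, for quercetin against untreated abl-1 KO, for lutein against untreated wt, for quercetin against lutein and for the quercetin effect of abl-1 KO minus that of wt, 0.478% for abl-1 KO against wt without treatment and 0.485% with quercetin. At an unadjusted p under 0.05, 0 of 9 members passed for quercetin in wt (background 1.35%), for lutein in wt (1.64%), for quercetin against lutein (1.4%), for abl-1 KO against wt without treatment (11.1%) and for the quercetin effect of abl-1 KO minus that of wt (1.59%). Only pals-18 passed for quercetin in abl-1 KO (1.82%) and for abl-1 KO against wt under quercetin (8.18%). With 9 genes, the counts of 0 and 1 lie near the background in each comparison.

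The median log2 difference of the 9 members was close to that of all tested genes. It was 0.02 for quercetin in wt (all genes 0.01), 0.03 for quercetin in abl-1 KO (all genes -0.0040) and 0.06 for lutein in wt (all genes 0.01). It was 0.03 for abl-1 KO against wt without treatment (all genes 0.03), 0.05 under quercetin (all genes 0.02) and 0.05 for quercetin against lutein (all genes -0.0028). Over the 6 group comparisons the 95% intervals of the members lay between a fold of 0.692, for pals-34 in quercetin against lutein, and 1.44, for pals-18 in quercetin against untreated abl-1 KO, on the scale of RPKM + 0.5. In 54 pairings of a member with a group comparison, the ranges of the libraries overlapped in all 54, against a background of 0.961% of such pairings without overlap over all tested genes. The comparisons with quercetin, lutein and abl-1 KO share the untreated wt libraries.

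**Figure D2:**
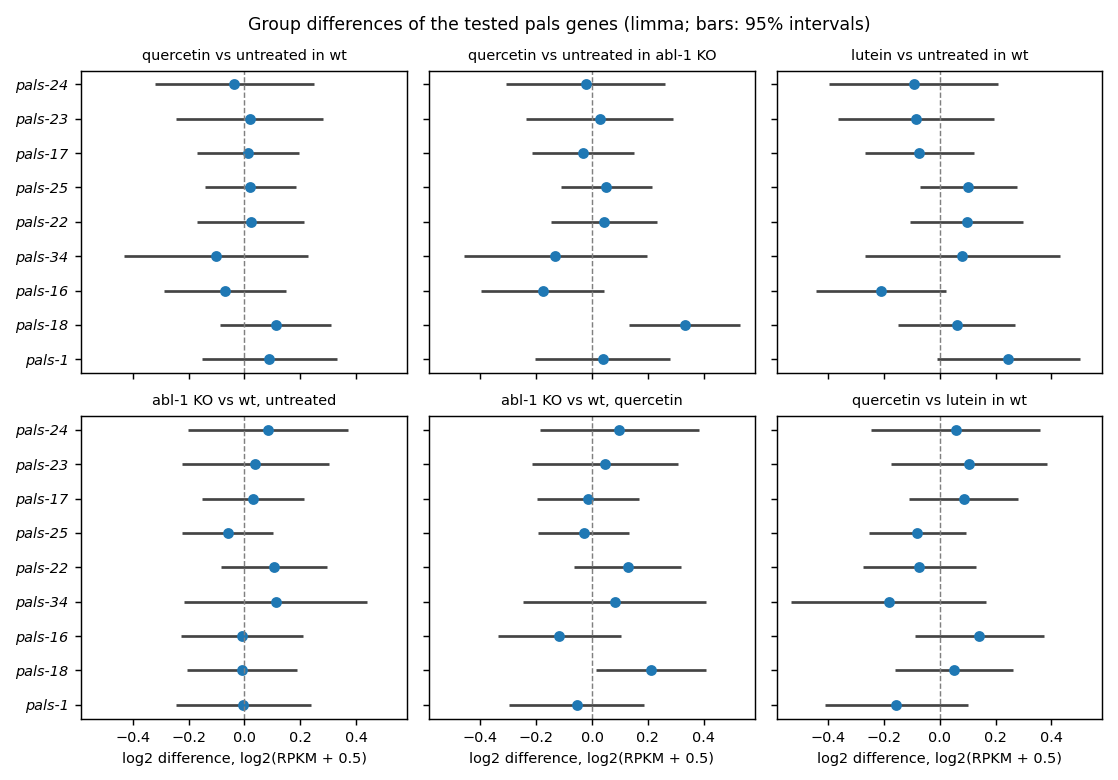
Log2 difference (x axis, on the scale of log2(RPKM + 0.5)) of each of the 9 tested pals genes (y axis) in the 6 group comparisons (panels), with limma's 95% interval as a bar. All intervals cross 0 except those of pals-18 in quercetin against untreated abl-1 KO and in abl-1 KO against wt under quercetin.

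The pair that sets the state of the intracellular pathogen response was expressed in every library and passed the test in no comparison. The repressor pals-22 was at 2.19, 2.18, 2.4, 2.01 and 1.85 RPKM in untreated wt, at 2.19, 1.90, 2.13, 2.39 and 2.21 on quercetin and at 2.21, 2.69, 1.90 and 2.46 on lutein. In the abl-1 KO groups it was at 2.26, 2.61, 2.66, 1.78 and 2.37 RPKM untreated and at 2.61, 2.65, 2.26, 2.25 and 2.29 on quercetin. The groups overlapped throughout, with means of 2.13 ± 0.209 (SD) in untreated wt and 2.34 ± 0.354 in untreated abl-1 KO, and of 2.16 ± 0.174 and 2.41 ± 0.201 on quercetin. Among the members pals-22 had the smallest p for abl-1 KO against wt without treatment, at a log2 difference of 0.11 ± 0.09 (SE, 95% interval -0.08 to 0.30, limma adjusted p = 0.655).

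Its antagonist pals-25 was at 2.66, 2.43, 2.1, 2.93 and 2.73 RPKM in untreated wt, at 2.78, 2.42, 2.64, 2.32 and 2.88 on quercetin and at 2.57, 2.78, 2.85 and 2.93 on lutein. In abl-1 KO the level of pals-25 was 2.49, 2.68, 2.25, 2.38 and 2.38 RPKM untreated and at 2.72, 2.58, 2.87, 2.38 and 2.2 on quercetin. It was the least variable tested member over the 24 libraries (coefficient of variation 9.46%), and its quercetin differences had intervals from -0.14 to 0.19 in wt and from -0.11 to 0.22 in abl-1 KO on the log2 scale. As levels per length, pals-25 exceeded pals-22 in 19 of 24 libraries, with a mean ratio of 1.15 ± 0.185 (SD). The ratio was 1.23 ± 0.251 in untreated wt, 1.21 ± 0.135 on quercetin and 1.22 ± 0.198 on lutein, and 1.06 ± 0.181 and 1.06 ± 0.125 in abl-1 KO without and with quercetin, and the 5 groups overlapped. Their spread within groups was no larger than counting error (0.974 and 0.920 times), so that the correlation of their levels over the 24 libraries could not show whether the neighbours vary together (Pearson r = -0.113, permutation p = 0.600, Spearman rho = -0.164, permutation p = 0.443, adjusted over 2 pairs to 0.600 and 0.478). Without the 2 libraries farthest from the median of pals-22, r was -0.167, and on deviations from the group means it was -0.107.

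The repressor pals-17 was the third most abundant member. It was at 3.16, 2.52, 2.43, 2.69 and 3.13 RPKM in untreated wt, at 2.55, 2.39, 3.10, 2.93 and 3.10 on quercetin and at 2.74, 2.54, 2.82 and 2.36 on lutein. Its levels in abl-1 KO were 2.81, 2.97, 2.84, 2.47 and 3.15 RPKM untreated and at 3.07, 2.58, 2.77, 3.14 and 2.35 on quercetin. Every group spanned most of the range of the others, and the group means differed by at most 1.09-fold, from 2.62 RPKM on lutein to 2.85 RPKM in untreated abl-1 KO.

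The gene that acts against it, pals-16, was at 1.33, 1.05, 1.52, 1.26 and 1.06 RPKM in untreated wt, at 1.21, 0.886, 1.34, 1.26 and 1.11 on quercetin and at 1.16, 1.07, 0.870 and 0.911 on lutein. In abl-1 KO it was at 1.27, 1.14, 1.41, 1.28 and 1.05 RPKM untreated and at 1.43, 1.07, 0.919, 0.860 and 0.912 on quercetin. The lutein libraries lay in the lower part of the untreated range or below it, and 4 of the 5 abl-1 KO quercetin libraries did not exceed 1.07. Neither difference passed: the log2 difference was -0.21 ± 0.11 for lutein (95% interval -0.44 to 0.02, limma adjusted p = 1.000) and -0.18 ± 0.11 for quercetin in abl-1 KO (95% interval -0.40 to 0.04, limma adjusted p = 1.000). For quercetin against lutein, where it had the smallest p of the members, the difference was 0.14 ± 0.11 (95% interval -0.09 to 0.37). The spread of pals-17 and of pals-16 was likewise no larger than counting error (0.988 and 0.973 times), and their correlation over the 24 libraries could not show whether they vary together (Pearson r = 0.197, permutation p = 0.351, Spearman rho = 0.151, permutation p = 0.478, adjusted to 0.600 and 0.478). It was 0.022 without the 2 libraries farthest from the median of pals-17 and 0.116 on deviations from the group means.

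The remaining regulator, pals-20, and the reporter gene pals-5 were close to absent. For pals-20, 44 reads were recovered in all 24 libraries, 0 to 5 in each and 0 in 5 of them, a mean of 0.0465 RPKM, and the relation of pals-16 with pals-20 was not examined because of it. For pals-5 there were 5 reads in all: 1 in untreated wt replicate 2, 1 in abl-1 KO quercetin replicate 1 and 3 in abl-1 KO quercetin replicate 5, with 0 in the other 21 libraries. The mean of pals-5 was 0.00519 RPKM, and its highest library reached 0.0712 RPKM. A single read is worth 0.0219 to 0.0361 RPKM for a gene of 1 kb at these depths.

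The most abundant members were pals-24 and pals-23, whose functions are not well known. The level of pals-24 was 3.79, 3.13, 4.24, 4.16 and 4.18 RPKM in untreated wt, 2.79, 3.18, 4.29, 4.24 and 4.65 on quercetin and 3.50, 3.04, 4.35 and 3.62 on lutein. Among abl-1 KO libraries it was 4.16, 2.77, 5.08, 4.61 and 4.44 RPKM untreated and 3.57, 3.80, 4.89, 4.24 and 3.96 on quercetin. Each group held both low and high libraries, and the group means of 3.63 to 4.21 RPKM lay closer together than the libraries of a group.

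For pals-23 the levels were 3.17, 2.68, 3.94, 3.56 and 2.45 RPKM in untreated wt, 2.72, 2.80, 3.49, 3.08 and 3.85 on quercetin and 2.73, 2.71, 3.52 and 2.75 on lutein. In abl-1 KO they were 3.37, 2.35, 4.20, 3.62 and 2.81 RPKM untreated and 3.05, 3.28, 3.35, 3.69 and 3.09 on quercetin. The group means ran from 2.93 to 3.29 RPKM and no group stood apart. In all 24 libraries pals-24 was above its neighbour pals-23, with a mean ratio of 1.25 ± 0.155. Further down the order the neighbours were less clearly separated: pals-23 exceeded pals-17 in 19 of 24 libraries and pals-17 exceeded pals-25 in 17 of 24, whereas pals-22 exceeded pals-34, the next in order, in all 24.

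**Figure D3:**
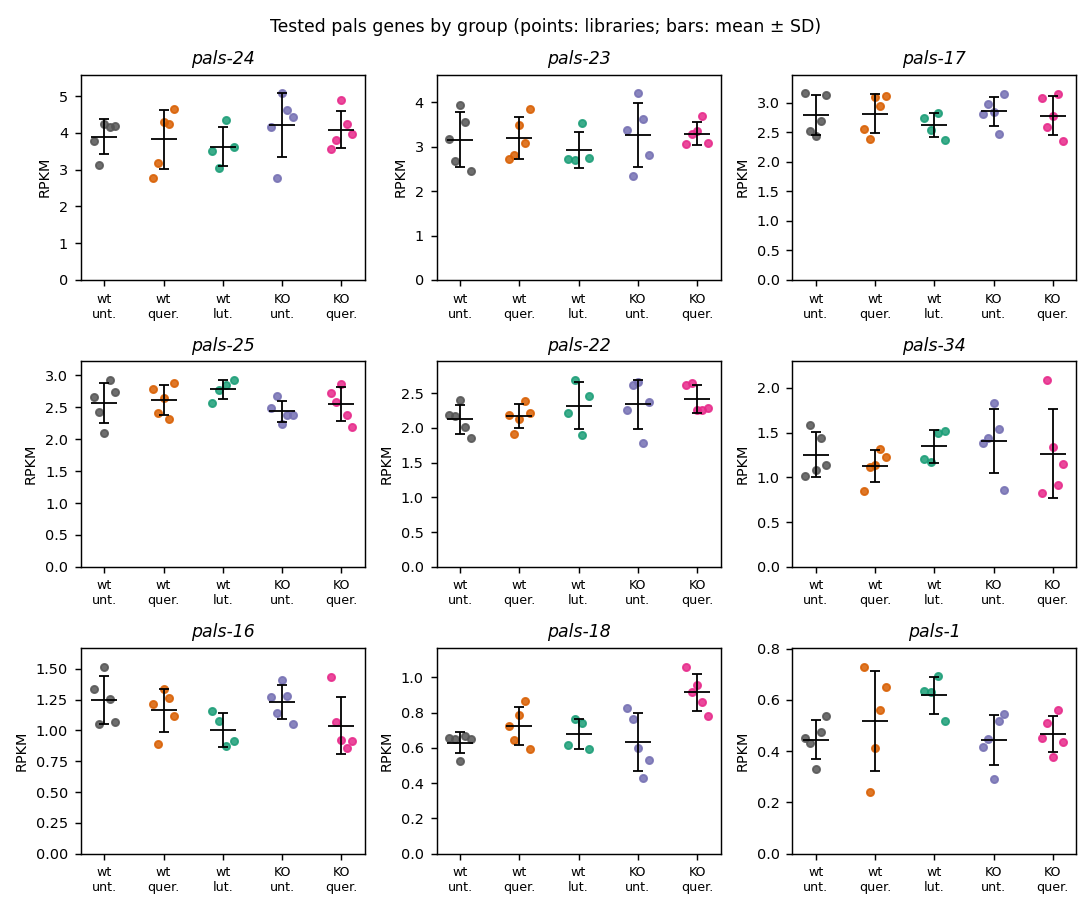
RPKM (y axis, from 0) of the 9 tested pals genes (panels, ordered by mean level) in the 5 groups (x axis; unt., untreated; quer., quercetin; lut., lutein; KO, abl-1 KO), with a point for each library and the mean ± SD. All groups overlap in every panel except that of pals-18, where the abl-1 KO quercetin libraries, at 0.780 to 1.06, reach highest. These overlap the untreated abl-1 KO libraries (up to 0.828) and the wt quercetin libraries (up to 0.864). They lie above every untreated wt library (up to 0.669) and every lutein library (up to 0.763).

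The member with the strongest difference was pals-18, a gene of the pals-17 neighbourhood with no established role. It was at 0.654, 0.650, 0.525, 0.669 and 0.651 RPKM in untreated wt, at 0.724, 0.645, 0.785, 0.864 and 0.596 on quercetin and at 0.619, 0.763, 0.743 and 0.592 on lutein. The abl-1 KO libraries were at 0.828, 0.765, 0.600, 0.432 and 0.533 RPKM untreated and at 1.06, 0.916, 0.955, 0.862 and 0.780 on quercetin. All abl-1 KO quercetin libraries except replicate 5 were above every untreated abl-1 KO library, and the groups overlapped through that library alone. The means were 0.631 ± 0.163 untreated and 0.915 ± 0.104 on quercetin, a log2 difference of 0.33 ± 0.10 (SE, 95% interval 0.13 to 0.53). In this comparison limma gave it the 9th smallest p of the 12771 genes (limma adjusted p = 1.000). An exact two-sided permutation test of these 10 libraries gave p = 0.0159, where 0.00794 is the smallest possible, as 1 of 54 such tests of the members. Of the 54 exact tests, which were not adjusted, 3 had a p under 0.05, and this one was the smallest. Exact tests were run for the members only, so this count has no background over all genes and is no result about the family. Under quercetin pals-18 was also higher in abl-1 KO than in wt by 0.21 ± 0.10 (limma adjusted p = 0.572, exact permutation p = 0.0397), and both comparisons use the same abl-1 KO quercetin libraries. The quercetin difference in wt was 0.11 ± 0.10 (95% interval -0.09 to 0.31), and the quercetin effect of abl-1 KO exceeded that of wt by 0.22 ± 0.14 (95% interval -0.06 to 0.50, limma adjusted p = 1.000). The 31 major sperm protein genes summed to 165, 620, 11.8, 23.6 and 12.6 RPKM in untreated abl-1 KO. On quercetin their sum was 106, 442, 372, 18.1 and 272 RPKM in abl-1 KO. The median of the sum was 23.6 RPKM untreated and 272 RPKM on quercetin. Between same-numbered libraries the sum was lower on quercetin in replicates 1, 2 and 4 and higher in replicates 3 and 5. By contrast, pals-18 was higher on quercetin in all 5 of these pairs. The untreated libraries with the highest pals-18, replicates 1 and 2, were also those with the highest sum. In abl-1 KO quercetin replicate 4, where the sum was 18.1 RPKM, pals-18 was at 0.862 RPKM, above every untreated abl-1 KO library. Whether the sperm genes' difference has a part in that of pals-18 was not tested. These values rest on 13 to 32 reads per library, and the exon length behind them (939 bases) is shorter than that of the annotation used for positions (2356 bases). Its partner by overlap, pals-19, did not pass the filter and had 3 to 24 reads per library, with a mean of 0.310 RPKM. In abl-1 KO pals-19 went the other way, from a mean of 0.439 RPKM (72 reads) untreated to 0.323 RPKM (53 reads) on quercetin. Its log2 difference was -0.20 ± 0.13 (limma without a filter), and the groups overlapped. Whether the assignment of reads between pals-18 and pals-19 has a part in the difference of pals-18 was not tested.

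For lutein the member with the smallest p was pals-1, a single gene on chromosome I away from the large group. It was at 0.450, 0.432, 0.329, 0.474 and 0.539 RPKM in untreated wt, at 0.728, 0.239, 0.412, 0.561 and 0.649 on quercetin and at 0.633, 0.629, 0.692 and 0.519 on lutein. In animals lacking abl-1 it was at 0.418, 0.447, 0.292, 0.518 and 0.544 RPKM untreated and at 0.451, 0.510, 0.378, 0.560 and 0.434 on quercetin. The lutein libraries were above the untreated wt libraries except for replicate 4, which lay below the highest of them. The log2 difference was 0.25 ± 0.12 (95% interval -0.01 to 0.50, limma adjusted p = 1.000, exact permutation p = 0.0238), and that of quercetin against lutein was -0.16 ± 0.12 (95% interval -0.41 to 0.10).

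The widest spread between libraries of a group was that of pals-34, on chromosome V. It was at 1.01, 1.59, 1.08, 1.44 and 1.14 RPKM in untreated wt, at 0.847, 1.11, 1.13, 1.32 and 1.23 on quercetin and at 1.20, 1.17, 1.49 and 1.52 on lutein. For abl-1 KO the values were 1.38, 1.43, 1.83, 1.54 and 0.856 RPKM untreated and at 0.827, 2.09, 1.34, 0.919 and 1.15 on quercetin. The highest and the lowest value of all 24 libraries both fell in the abl-1 KO quercetin group, in replicates 2 and 1. That group's replicate 2 also had the highest summed level of major sperm protein genes of its group, 442 RPKM. The highest pals-34 library also had the highest sum in untreated wt, replicate 2, and in wt on quercetin, replicate 4. On lutein it did not, and the highest sum went with the lowest pals-34 in replicate 2. In untreated abl-1 KO the highest pals-34 library, replicate 3, had the lowest sum. Whether the sum bears on pals-34 was not tested.

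The spread of the members can be set against read counting. For pals-1, pals-16, pals-17, pals-18, pals-22 and pals-25 the SD between libraries of a group, on the scale of log2(RPKM + 0.5), was 0.757 to 0.989 times the SD that counting error alone gives at their mean level and the mean depth. It was 1.41 times that SD for pals-34, 1.85 times for pals-23 and 1.95 times for pals-24. For the first 6 the spread was no larger than counting error. Where an interval includes 0, a change within it could have been missed, and how small a change could be detected at this depth was not tested.

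**Figure D4:**
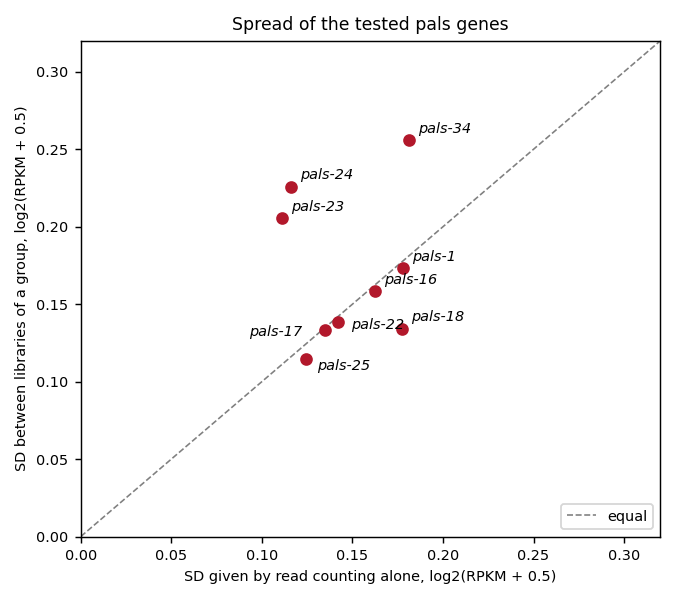
SD between libraries of a group, pooled over the 5 groups (y axis), against the SD that read counting alone gives at the member's mean level (x axis), both on the scale of log2(RPKM + 0.5), for the 9 tested pals genes (points), with a dashed line where both are equal. The points of pals-23, pals-24 and pals-34 lie above the line, at ratios of 1.41 to 1.95, and the other 6 on or below it.

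The 29 members that did not pass the filter had 1295 reads in all. Summed over these members, untreated wt had 1.54 reads per M mapped reads (1.30 to 2.00 over its 5 libraries), quercetin 1.46 (1.12 to 1.95), lutein 1.52 (1.21 to 1.83), untreated abl-1 KO 1.76 (1.43 to 2.16) and abl-1 KO on quercetin 1.63 (1.32 to 2.09). The 5 groups overlapped, and 22 to 24 of the 29 members had a read in each group. Of the 14 members of the chromosome I group, pals-6 (106 reads), pals-14 (79) and pals-4 (71) held most of its 329 reads, and the other 11 had 17 reads or fewer each. With no filter the same fit took in the 27 of them that had a read and called 0 (background 0.0873% over the 7 comparisons), and 9 of their 189 differences over the 7 comparisons (4.76%) had an unadjusted p under 0.05, against a background of 4.01% over all genes with a read.

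Of these low members pals-39 had the smallest p. It had 3, 2, 2, 4 and 1 reads in untreated wt, 0, 0, 0, 1 and 1 on quercetin and 0 in each of the 4 lutein libraries. In abl-1 KO it had 2, 0, 2, 2 and 2 reads untreated and 0, 0, 3, 1 and 0 on quercetin. Reads were present in every untreated wt library and in none on lutein, on a total of 26 reads over the 24 libraries (limma without a filter, lutein against untreated wt, log2 difference -0.16 ± 0.04, adjusted p = 1). Next came pals-4, with 4, 2, 2, 12 and 7 reads in untreated wt, 0, 1, 2, 2 and 4 on quercetin and 4, 2, 4 and 4 on lutein, and in abl-1 KO with 1, 2, 2, 0 and 3 reads untreated and 4, 3, 2, 1 and 3 on quercetin. The untreated wt group held the highest library, replicate 4 with 12 reads, and the groups overlapped (limma without a filter, abl-1 KO against wt untreated, log2 difference -0.23 ± 0.08, adjusted p = 0.305). For quercetin in wt the log2 difference of pals-4 was -0.21 ± 0.08 (limma without a filter, unadjusted p = 0.00975), and it was not called either. The study itself lists pals-4, and no other pals gene, among the genes changed both by quercetin and in abl-1 KO, lowered in both. That list came from the study's own test in CLC Genomics Workbench, not from limma.

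Other genes of the pathway were taken from 3 lists. Of 7 regulators outside the family all were tested, with means from 2.18 RPKM for sta-1 to 65.7 RPKM for dpl-1. They include drh-1, the RIG-I-like receptor that senses viral RNA, at 23.1 RPKM, and zip-1, a bZIP transcription factor of the response, at 4.73 RPKM. Of the 7 genes of the CUL-6 ubiquitin ligase, 4 were tested, among them the cullin gene cul-6 at 1.06 RPKM, and the highest of the list was at 23.3 RPKM, whereas the F-box genes fbxa-75 and fbxa-158, which the response induces, had 1 and 6 reads in all. Of 20 other induced genes outside the family 5 were tested, the highest at 2.01 RPKM. Among the 20, 12 had a mean below 0.1 RPKM, a larger share than the 25.7% of all genes. One of these was chil-27, a chitinase-like gene, at 0.0409 RPKM. In these 3 lists limma called 0 of 16 tested genes in each of the 7 comparisons (background 0% in 5 of them, 0.478% for abl-1 KO against wt without treatment and 0.485% under quercetin), and an unadjusted p under 0.05 was reached by 4 of them for abl-1 KO against wt without treatment (background 11.1%), 1 under quercetin (8.18%), 1 for lutein in wt (1.64%), 1 for the quercetin effect of abl-1 KO minus that of wt (1.59%) and 0 in the other 3.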

How the data were processed

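RNA from whole worms was sequenced in 24 libraries (TruSeq Stranded mRNA kit, single reads of 150 bases, bcl2fastq 2.20.0.422). After trimming and mapping to WBcel235 in CLC Genomics Workbench the authors deposited RPKM values, and groups and replicate numbers follow the labels. Mapped reads per library were recovered from the commonest step of RPKM times exon length, and the smallest exon length that makes a gene's reads whole within 0.002 reads in all libraries was found for 19303 of the 19305 genes with a value above 0. Because the design assumed no counts, limma 3.58.1 (R 4.3.3) was fitted with a variance trend to log2(RPKM + 0.5) of the 24 libraries in 5 groups, for genes with at least 0.5 RPKM in at least 4 libraries, two-sided, and tested on simulated data. Exact permutation tests (scipy 1.17.1) of single members are two-sided, and correlations used 100000 permutations. Positions come from the Ensembl annotation of the same assembly, in which all 38 names were found. The methods name 5 biological replicas per condition; nothing more says how they were separated, so p-values measure the spread between these libraries. Alternatives were 2 scalings, 2 filters, 2 pseudocounts, fewer libraries in the fit, no variance trend, a replicate block, leaving out each library and, chosen after seeing the data, limma-voom on the recovered reads. Described members are those of known role, the 5 highest, those with the smallest p in a comparison, those with the widest spread, and low members with the smallest p, chosen after their values were seen; the members and lists were chosen with earlier results of these data known. In the lists, 6 names were matched through RefSeq locus tags, and 3 of these are pals members.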

Additional observations from a re-analysis of the deposited data

Results flagged for a closer look

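For the 9 tested pals genes and the summed level of the family, each of the 5 groups was searched for a library far from the rest by Dixon's test at 95%, which chance passes in about 1 of 20 groups. Of 50 groups examined, 2 had such a library. In untreated wt, pals-18 was at 0.525 RPKM in replicate 3, below the other 4 libraries at 0.650 to 0.669 RPKM. On lutein, pals-23 was at 3.52 RPKM in replicate 3, above the other 3 libraries at 2.71 to 2.75 RPKM. No pals gene differed between the strains in its quercetin effect by the limma test of the difference.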

How the results depend on the processing

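No pals gene was called in any of the 7 comparisons under any alternative run, whether another setting (70 counts) or 1 library left out (78 counts). The number of members with an unadjusted p under 0.05 ranged from 0 to 3. Without a filter it was 3 of 36 members for lutein against untreated wt, where 413 of 19305 genes passed. With a replicate block it was 2 of 9 members for lutein, where 437 of 12771 genes passed. With so few members these counts are no result about the family. The median log2 difference of the tested members stayed within 0.0853, the SD of that median between libraries of a group, in every alternative except 1: for lutein against untreated wt it was -0.073 with a filter of 1 RPKM in 4 libraries, which leaves out pals-1 and pals-18, against 0.061. For pals-18 in abl-1 KO the quercetin difference was 0.24 with a pseudocount of 1, 0.50 with one of 0.1, 0.56 with limma-voom on recovered reads and 0.26 to 0.39 with 1 library left out, with an adjusted p of 0.985 to 1. With a replicate block, the paired fit, this difference was 0.33 (pals-18 was higher on quercetin in all 5 same-numbered pairs), also without a call, and the count of called members stayed at 0 in all comparisons, whereas the calls over all genes rose from 61 to 466 for abl-1 KO against wt without treatment and from 62 to 252 under quercetin. Deviations of same-numbered libraries correlated with a median of 0.317, against -0.0746 between numbers, and 15 of 24 libraries correlated best with their own number, a hint from the data that libraries of a number have something in common. The design does not state such a pairing, and the correlations ran from -0.607 to 0.669, so not every pair showed it. Few reads limit most of the family: 29 of the 38 members did not pass the filter, and 11 had fewer than 10 reads in all 24 libraries together.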

Other observations

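Levels of many genes differed with the replicate number of the labels, and the labels do not say what the libraries of a number share. In a limma fit with group and replicate number, chosen after seeing the data, the number passed an adjusted p of 0.05 for 29.3% of all tested genes and for 1 of the 9 tested pals genes, pals-24 (adjusted p = 0.00194), so that the count of members was below the background and is no result about the family. The mean level of pals-24 was 3.56 and 3.19 RPKM in replicates 1 and 2 and 4.57, 4.17 and 4.31 RPKM in replicates 3, 4 and 5. Its neighbour pals-23 was at 3.01 and 2.76 RPKM and at 3.70, 3.34 and 3.05 RPKM in the same order and did not pass (adjusted p = 0.0535), and pals-25 in the same group of neighbours did not pass either (adjusted p = 0.982). C29F9.12, which overlaps pals-24 on the opposite strand, was at 26.2, 23.9, 26.2, 25.3 and 25.8 RPKM.

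Without a filter the number passed for 17.3% of genes and for 2 of the 36 pals genes with a read, again below the background: pals-24 and pals-32, on chromosome V (adjusted p = 0.00734). It had a read in all 10 libraries of replicates 1 and 2, with 43 reads, and in 5 of the 14 libraries of replicates 3 to 5, with 11 reads. In untreated wt it had 2, 2, 0, 0 and 0 reads, in untreated abl-1 KO 8, 6, 4, 0 and 0, and on lutein 4, 7, 0 and 1. On quercetin it had 1, 5, 0, 2 and 0 reads in wt and 2, 6, 1, 3 and 0 in abl-1 KO.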
